A study of Homo sapiens with 17 samples.

Results

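CHP-134 is a human neuroblastoma cell line with an amplified MYCN oncogene, and its RNA was sequenced both from cells in culture and from tumors that the same line formed in mice. The comparison described here set the 5 control tumors, which had received no retinoic acid, against the 2 cultures given DMSO alone, so it used 7 of the study's 17 samples. The samples were chosen by their labels and not by any measured value. It asks how the transcriptome of these cells differed between a subcutaneous tumor and a culture dish, before any retinoic acid was given.

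The DMSO cells were CHP-134 grown in RPMI medium with fetal bovine serum and exposed to DMSO, the solvent of all-trans retinoic acid. The control tumors grew from luciferase-labelled CHP-134 cells injected under the skin of female athymic nude mice about 12 weeks old, which lack mature T cells. The labels call these tumors untreated, whereas the study's methods describe vehicle-treated tumors. The cultures treated with all-trans retinoic acid and the tumors treated with 13-cis retinoic acid were not used here. Both groups come from 1 cell line, only the tumor cells carry the luciferase label, and a tumor library can also hold RNA of mouse cells. The cell libraries were made with an Illumina stranded total RNA kit, the tumor libraries with a KAPA RNA HyperPrep kit, and the counts stand in separate tables. Growth site, library kit and table therefore separate the samples in the same way and cannot be told apart. Nothing in the labels says whether the libraries of a group came from separate cultures, so the p-values below measure only the spread between these libraries.

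The values were read counts per gene, given as counts per 1000000 protein-coding counts after edgeR's TMM scaling of library sizes (CPM). The DMSO libraries held 34450006 and 39422897 counts and the tumor libraries 17266558 to 19995798, so tumor values rest on fewer reads. Log counts correlated at r = 0.996 between the DMSO libraries and at 0.975 to 0.986 between tumors, across genes. The first principal component separated tumors from cells and carried 85.7% of the variance. Protein-coding genes took 88.9% of counts in both DMSO libraries and 85.5% to 88.2% in tumors. The level of noncoding genes that lie opposite a protein-coding gene stood apart: over 1424 such pairs, the noncoding gene had a median level of 0.0250% to 0.0257% of its coding partner in DMSO cells and 0.578% to 0.749% in tumors. Summed over the pairs, the difference was smaller: the noncoding level was 1.59% and 1.63% of the coding level in DMSO cells and 3.17% to 3.52% in tumors. Reads that had been counted on the opposite strand would raise a gene that lies inside another gene, and for this reason the position of each gene is given below where it bears on a result.

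Neuroblastoma markers were present in both groups. Of 12 neuroblastoma markers, 10 were above 1 CPM in DMSO cells and 12 in tumors, and their summed level was 3945 and 4001 CPM in DMSO cells and 3800 to 5810 CPM in tumors. Most of this sum was MYCN in every library, and the median log2 fold change of the 12 markers was −0.57. The 12 leukocyte markers summed to 1.14 and 1.17 CPM in DMSO cells and to 6.29 to 10.8 CPM in tumors. Those with at least 10 counts over the group numbered 3 in DMSO cells and 8 in tumors, and all 3 that were tested rose. TYROBP was at 0 in every library, and C1QA, AIF1 and CD163 were under 0.1 CPM in all of them. The 12 endothelium markers summed to 1.92 and 2.47 CPM and to 5.49 to 12.3 CPM, and the 8 red cell markers to at most 0.167 CPM and to 0.636 to 2.56 CPM. The 10 Schwann cell markers summed to 9.67 and 10.5 CPM in DMSO cells and to 14.1 to 20.4 CPM in tumors. Those above 1 CPM on average numbered 2 in DMSO cells and 8 in tumors, while S100B was below 0.2 CPM on average in both groups. The 14 skin and muscle markers summed to 54.8 and 55.8 CPM in DMSO cells and to 12.7 to 17.6 CPM in 4 tumors, against 97.2 CPM in tumor 1, where MYH4, a myosin of fast skeletal muscle, alone reached 58.4 CPM. The 12 fibroblast markers summed to 162 and 168 CPM in DMSO cells and to 71.1 to 188 CPM in tumors, with tumor 4 the highest. The DMSO cells were cultures of 1 cell line, so their marker sums do not measure cells of other types. A lower sum in tumors is therefore not a sign of fewer such cells. Where a sum was higher in tumors, bulk RNA cannot tell more cells of a type from more RNA per cell.

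A gene was called when edgeR's quasi-likelihood test gave a Benjamini-Hochberg adjusted p below 0.05 and the groups differed by more than 2-fold, and "rose" or "fell" below means a call in tumors relative to DMSO cells. Of 14481 protein-coding genes tested, 4152 were called, which is 28.7%. The 2620 genes that rose were 18.1% of those tested, and the 1532 that fell were 10.6%. All 5 tumors lay above both DMSO libraries for 38.7% of genes tested and below both for 36.8%. These shares are the background against which the counts for each gene list are read. An exact permutation test of a single gene could not have gone below a two-sided p of 0.0952 with 2 libraries against 5.

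Calls differed with the base composition of the transcript. The median log2 fold change went from 0.24 in the lowest of 5 equal groups by GC content to −0.53 in the highest, and the share of genes that fell went from 2.45% to 27.6%. By exon length, the share that fell went from 18.5% in the shortest of 5 equal groups to 6.15% in the longest. A smooth trend over GC content and transcript length, fitted to these same fold changes, explained 3.79% of their variance. With this trend entered as an offset, 19.7% of genes rose and 6.24% fell. Counts for the lists are therefore given with and without this offset where they differ. Calls also differed with position. Of the 1201 genes whose exons lay inside an opposite-strand gene without overlapping its exons, 29.6% rose, against 16.4% of the 7123 genes that lay outside every such gene. The 6157 genes whose exons overlap opposite-strand exons were near the background, with 17.8% that rose.

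**Figure D1:**
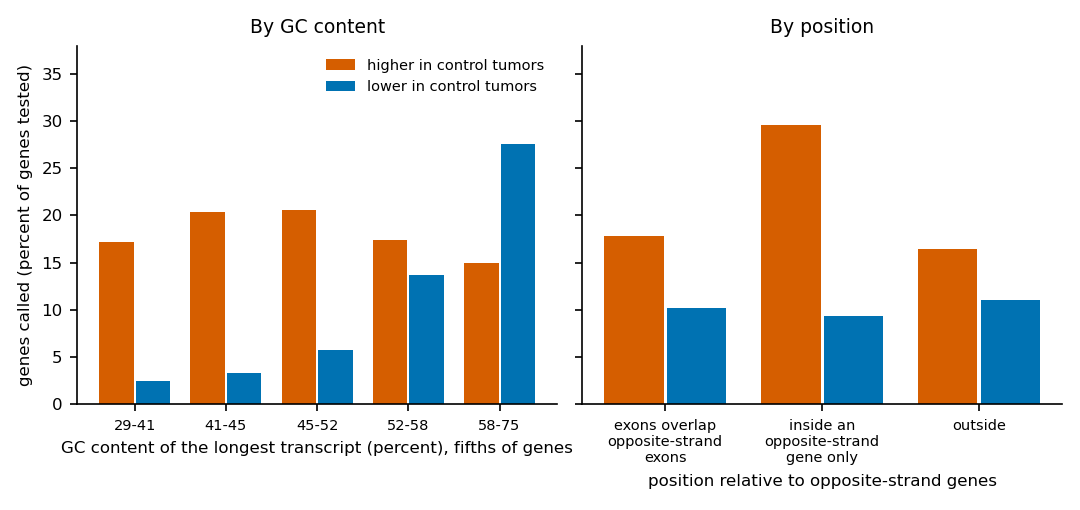
Percent of protein-coding genes tested that were called higher (orange) or lower (blue) in control tumors than in DMSO cells, by 5 equal groups of transcript GC content (left) and by position relative to genes on the opposite strand (right). The share called lower climbs from 2.45% in the lowest GC group to 27.6% in the highest. The share called higher peaks at 29.6% for genes inside an opposite-strand gene without exon overlap, against 17.8% for genes with exon overlap.

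The 37 pathway lists differed widely in how many of their members were called. By rule, the 3 called members with the largest change were named in each list, besides a fixed set of genes. Any further gene was chosen after its values had been seen. More than 50% of the tested members fell in the ID, other BMP target, adrenergic transcription factor, cholesterol synthesis and histone lists, and more than 50% rose among the mitochondrial-genome transcripts.

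**Figure D2:**
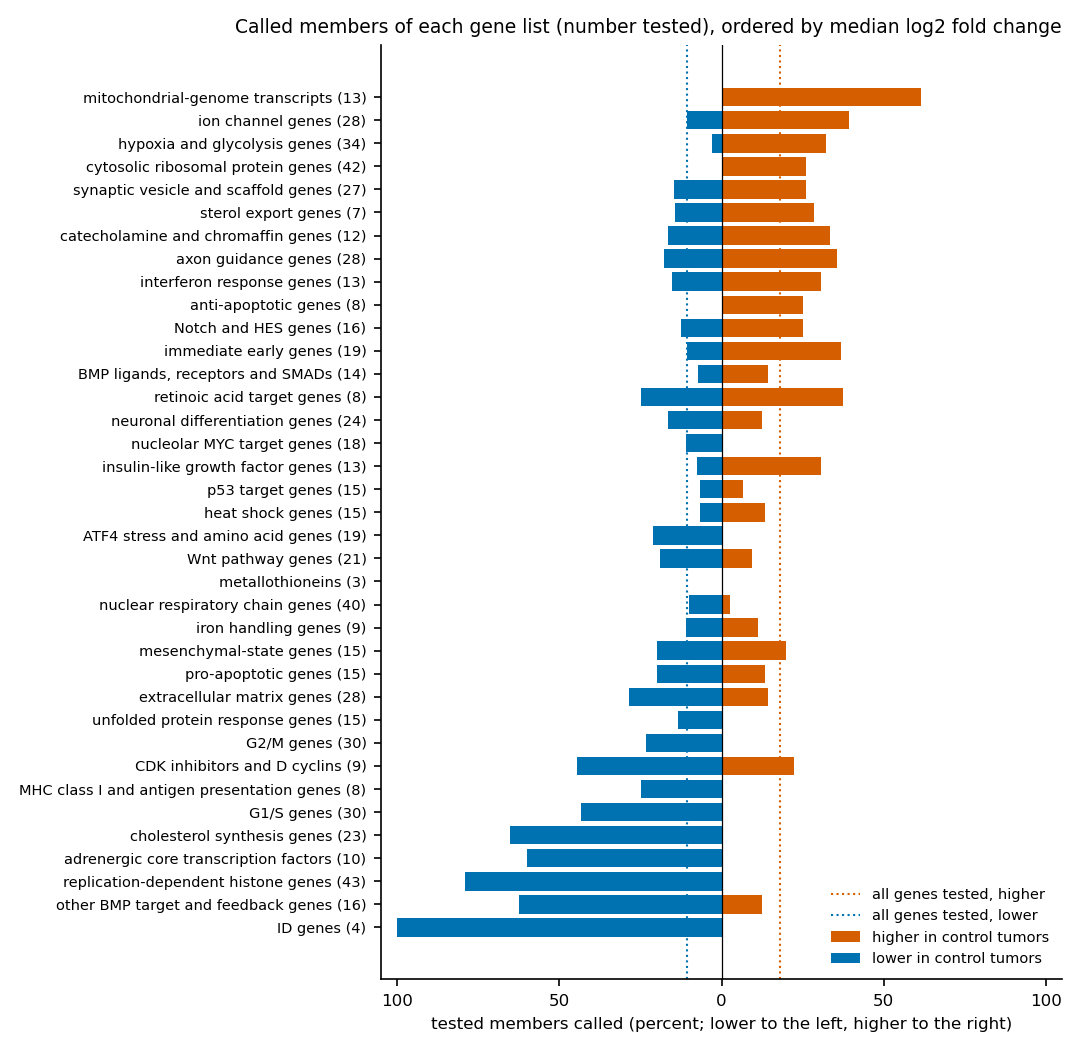
Percent of tested members of each gene list called lower (blue, to the left) or higher (orange, to the right) in control tumors than in DMSO cells, ordered by the list's median log2 fold change, with the number tested in brackets. Dotted lines mark all genes tested, 10.6% lower and 18.1% higher. The ID list stands at 100% lower and the cytosolic ribosomal and mitochondrial-genome lists have called members only to the right.

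Bone morphogenetic proteins (BMPs) are secreted ligands that bind paired type I and type II serine/threonine kinase receptors. The activated receptors phosphorylate SMAD1, SMAD5 and SMAD9, which enter the nucleus with SMAD4 and switch on target genes. The best known direct targets are the ID genes, whose proteins bind basic helix-loop-helix factors and keep them off DNA, and SMAD6 and SMAD7, inhibitory SMADs that damp the same receptors. In the embryo, BMPs from the dorsal aorta help turn neural crest cells into the sympathetic and adrenal lineage from which neuroblastoma arises.

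The ID genes are the readout of BMP signaling in this comparison, so the 250 bases before the annotated start of each are shown. They come from RefSeq, build GRCh38.p14, and are written in the direction of the gene. Capitals mark CAGAC, a SMAD-binding element searched on both strands.
ID1, chr20:31605039-31605288, plus strand: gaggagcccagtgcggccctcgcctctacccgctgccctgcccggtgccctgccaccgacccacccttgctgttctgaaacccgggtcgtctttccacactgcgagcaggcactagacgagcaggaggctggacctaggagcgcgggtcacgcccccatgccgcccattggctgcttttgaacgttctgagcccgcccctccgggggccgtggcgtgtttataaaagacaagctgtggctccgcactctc
ID2, chr2:8681806-8682055, plus strand: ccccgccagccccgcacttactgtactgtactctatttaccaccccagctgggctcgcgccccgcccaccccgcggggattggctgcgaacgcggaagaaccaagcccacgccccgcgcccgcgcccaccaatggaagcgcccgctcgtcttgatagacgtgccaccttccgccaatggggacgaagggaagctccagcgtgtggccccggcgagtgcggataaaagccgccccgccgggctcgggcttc
ID3, chr1:23559502-23559751, minus strand: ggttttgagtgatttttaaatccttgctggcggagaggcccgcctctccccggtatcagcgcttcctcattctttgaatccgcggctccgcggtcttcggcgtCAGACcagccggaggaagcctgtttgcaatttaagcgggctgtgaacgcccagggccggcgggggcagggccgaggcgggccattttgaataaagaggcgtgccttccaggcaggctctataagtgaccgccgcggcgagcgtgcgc
ID4, chr6:19837120-19837369, plus strand: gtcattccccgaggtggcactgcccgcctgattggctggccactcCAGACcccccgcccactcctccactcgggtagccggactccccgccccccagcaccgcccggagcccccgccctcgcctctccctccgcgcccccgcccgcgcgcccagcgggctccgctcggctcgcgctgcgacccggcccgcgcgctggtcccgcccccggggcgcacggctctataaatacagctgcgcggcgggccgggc
The letters CAGAC were found in 2 of these 4 windows, 147 bases before the start of ID3 and 205 bases before that of ID4, and in 5 of 13 windows of other BMP targets, against 35.6% of the 11566 windows of genes tested. The letters GGCGCC, a GC-rich element that BMP-activated SMADs bind, were found in none of the 4 ID windows, in 3 of the 13 others and in 25.6% of all. Both shares were near the background, and a match is a description of the letters and not a site.

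All 4 ID genes fell in tumors, in every tumor against both DMSO libraries. Their median log2 fold change was −3.46, against 0.04 over all genes tested, and the count was the same with the GC and length offset. The study itself reads BMP activity from ID genes in these samples, so the direction of this list is not independent evidence. ID1 measured 116 and 117 CPM in DMSO cells and 1.39, 1.93, 1.23, 18.2 and 1.59 CPM in tumors 1 to 5. Tumor 4 stood apart from the other tumors but still lay below the cells. The log2 fold change of ID1 was −4.59 ± 0.95 (SE, edgeR adjusted p = 0.00727) and −6.23 without tumor 4, while DESeq2 gave no adjusted p for it. ID3 measured 181 and 182 CPM in DMSO cells and 1.85, 1.42, 1.72, 7.86 and 2.16 CPM in tumors, a log2 fold change of −5.92 ± 0.49 (SE, edgeR adjusted p = 8.41e-05), or −6.67 without tumor 4. The same tumor was the highest for both genes. ID2 measured 71.7 and 68.9 CPM in DMSO cells and 21.3, 25.4, 25.4, 30.8 and 26.9 CPM in tumors, a log2 fold change of −1.44 ± 0.11 (SE, edgeR adjusted p = 4.36e-07). ID4 went from 20.9 and 19.7 CPM to 4.16, 2.49, 4.37, 4.18 and 5.02 CPM, a log2 fold change of −2.33 ± 0.19 (SE). For ID2 and ID4 the tumors lay closer together than for ID1 and ID3. ID1 and ID3 lie outside every opposite-strand gene, whereas exons of ID2 and ID4 lie partly inside one.

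Of 16 other BMP target and feedback genes tested, 10 fell and 2 rose, with and without the GC and length offset, and their median log2 fold change was −2.29. SMAD6, the inhibitory SMAD, measured 97.1 and 100.2 CPM in DMSO cells and 0.264, 0.396, 0.185, 5.86 and 0.127 CPM in tumors. Its log2 fold change was −6.17 ± 0.87 (SE, edgeR adjusted p = 0.00135) and −8.61 without tumor 4, again the highest tumor, and DESeq2 gave no adjusted p for it either. ATOH8, a helix-loop-helix factor, measured 181 and 186 CPM in DMSO cells and 3.24, 1.47, 2.22, 6.49 and 0.636 CPM in tumors, a log2 fold change of −6.04 ± 0.48 (SE). SMAD7, the other inhibitory SMAD, went from 31.2 and 31.98 CPM to 6.999, 7.36, 7.94, 17.3 and 9.98 CPM, a log2 fold change of −1.67 ± 0.30 (SE, edgeR adjusted p = 0.00142). BAMBI, a kinase-dead pseudoreceptor that blocks the pathway, went from 4.05 and 4.30 CPM to between 0.264 and 1.31 CPM. MSX2, a homeobox factor, was at 1.08 and 0.967 CPM in DMSO cells, at 0.187 CPM in tumor 4 and at 0 in the other tumors. Thus the inhibitors SMAD6, SMAD7 and BAMBI fell, and tumor 4 had the highest value in 15 of the 20 ID and other BMP target genes tested, against 23.3% of all genes tested.

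Among further BMP targets, the transcription factors TLX2 (323 to 41.9 CPM on average), GATA2 (36.4 to 4.95 CPM), MSX1 (5.58 to 1.02 CPM) and DLX5 (5.35 to 1.21 CPM) and the secreted BMP antagonist GREM1 (3.75 to 0.188 CPM) fell. The 2 that rose were NOG, another secreted BMP antagonist, with a log2 fold change of 1.24, and RUNX2, a factor of bone formation, with 1.37. HEY1, SKIL and the ubiquitin ligases SMURF1 and SMURF2 were not called, with log2 fold changes between −0.80 and 0.14.

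The ligands, receptors and signal-carrying SMADs behaved otherwise. Of 14 tested, 2 rose and 1 fell, and the median log2 fold change was 0.17. With the GC and length offset 3 rose and 1 fell. SMAD9, a BMP-activated SMAD, measured 344 and 355 CPM in DMSO cells and 580, 569, 659, 569 and 701 CPM in tumors, so all tumors were higher, but the difference of 0.82 ± 0.09 (SE) on the log2 scale was under the 2-fold threshold. The type I receptors ACVR1 and BMPR1A had log2 fold changes of −0.43 and −0.59 and the type II receptor BMPR2 one of −0.11, none of them called. BMPR1B, another type I receptor, rose from 1.19 and 1.501 CPM to between 1.98 and 5.36 CPM (edgeR adjusted p = 0.0095, but 0.0854 without DMSO replicate 1). The ligand GDF6 rose by 1.07 on the log2 scale, or 0.98 without DMSO replicate 2. The ligand BMP4 fell from 1.14 and 1.63 CPM to between 0.127 and 0.811 CPM (edgeR adjusted p = 0.0216, but 0.177 without DMSO replicate 2). Calls on these 3 weakly expressed genes thus rested on single DMSO libraries.

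**Figure D3:**
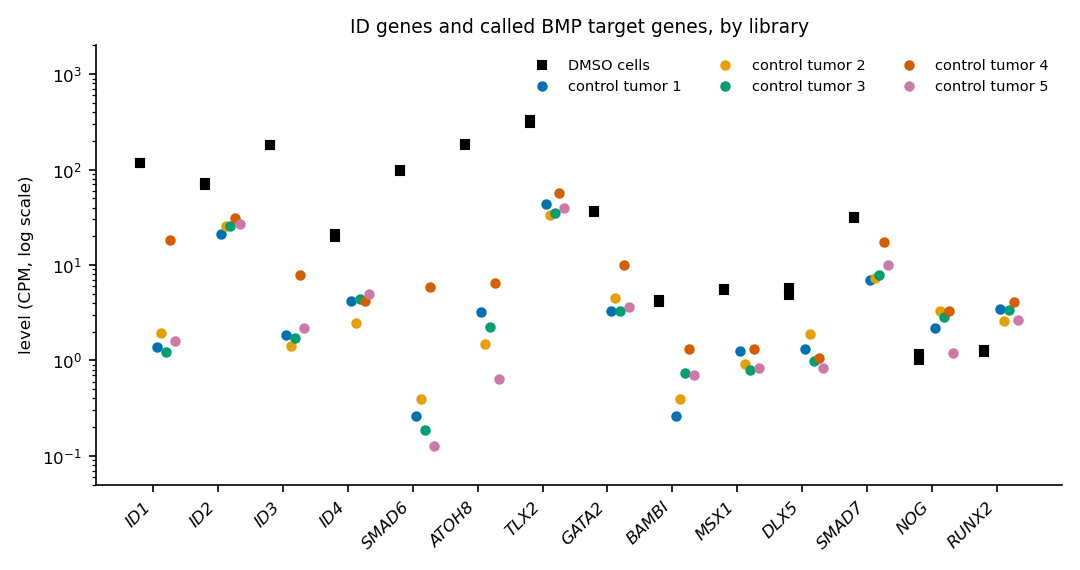
Level in CPM on a log scale of the 4 ID genes and of the called BMP target genes that had a count in every library, with DMSO cells as black squares and control tumors 1 to 5 as coloured circles. Tumor 4 is the highest tumor for ID1 at 18.2 CPM, ID3 at 7.86 CPM and SMAD6 at 5.86 CPM, and every tumor lies below both DMSO libraries for each ID gene.

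Neuroblastoma cells of the adrenergic state are held there by a small circuit of transcription factors that also build the sympathetic nervous system. A further factor, TFAP2B, had no count in any library. Of 10 such factors tested, 6 fell and none rose, with and without the offset, and their median log2 fold change was −1.58. TBX2, a T-box factor, went from 187 and 183 CPM to 2.77, 1.76, 4.06, 3.12 and 2.67 CPM, a log2 fold change of −6.01 ± 0.15 (SE). GATA3 went from 337 CPM in both DMSO libraries to 46.8, 38.1, 45.9, 47.1 and 60.8 CPM, a log2 fold change of −2.82 ± 0.13 (SE, edgeR adjusted p = 3.89e-08). The further members PHOX2A, ISL1 and HAND1 fell by 2.68, 1.74 and 1.42 on the log2 scale.

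Other factors of the circuit were not called. HAND2, a helix-loop-helix factor of sympathetic neurons, had a log2 fold change of −0.90, under the 2-fold threshold. MYCN measured 2084 and 2111 CPM in DMSO cells and 2460, 3829, 3115, 4327 and 3381 CPM in tumors. It was higher in every tumor by 0.71 ± 0.19 on the log2 scale (SE, edgeR adjusted p = 0.00935) and was not called.

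TH, DDC and DBH, the enzymes that make noradrenaline, rose from low levels. Of 12 catecholamine and chromaffin genes tested, 4 rose and 2 fell, 1 with the offset, and the median log2 fold change was 0.31. Of the 7 members outside every opposite-strand gene, 2 rose and 2 fell, and the median turned to −0.35. TH, the first enzyme of the route, rose from 0.262 and 0.300 CPM to between 0.873 and 1.13 CPM. DDC, which decarboxylates L-DOPA, rose from 1.92 and 1.07 CPM to 9.24, 12.8, 13.3, 15.7 and 15.1 CPM, a log2 fold change of 3.13 ± 0.28 (SE, edgeR adjusted p = 1.73e-06). DBH, which makes noradrenaline from dopamine, was at 0 and 0.367 CPM in DMSO cells and at 2.64, 1.70, 2.77, 6.55 and 2.61 CPM in tumors, a log2 fold change of 4.17 ± 0.92 (SE, edgeR adjusted p = 0.00327). Exons of DDC and DBH overlap genes on the opposite strand. The granule protein CHGB rose by 1.59 on the log2 scale, while the neuropeptide GAL fell by 1.84 and PNMT, which makes adrenaline, fell by 1.502.

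Neuronal differentiation genes moved in both directions. Of 24 tested, 3 rose and 4 fell, or 5 and 3 with the offset, and the median log2 fold change was 0.07. Of the 9 members outside every opposite-strand gene, 3 rose and 1 fell, with a median of 0.91. CNTN2, an axonal adhesion molecule, rose from 64.9 and 64.6 CPM to 689, 531, 737, 440 and 460 CPM, a log2 fold change of 3.14 ± 0.26 (SE, edgeR adjusted p = 1.93e-05). STMN2, a microtubule regulator of growing axons, rose from 186 and 184 CPM to between 510 and 605 CPM, and its relative STMN4 rose by 1.71 on the log2 scale. NCAM1, a neural adhesion molecule, fell from 314 CPM in both DMSO libraries to 37.7, 53.9, 60.1, 83.4 and 59.6 CPM, and the intermediate filament PRPH fell from 286 and 290 CPM to between 63.4 and 97.6 CPM. The secretory protein SCG2 and the tubulin TUBB3 fell by 1.41 and 1.13 on the log2 scale. The markers of maturing neurons MAP2, MAPT and DCX were higher in every tumor, by 0.59, 0.89 and 0.89 on the log2 scale, all under the 2-fold threshold, and with the offset MAPT was called at 1.52.

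Axon guidance genes, which code for ligands and receptors that steer growing axons, were called in both directions more often than most lists. Of 28 tested, 10 rose and 5 fell, with a median log2 fold change of 0.28. UNC5B, a netrin receptor, fell from 180 and 185 CPM to 3.90, 2.72, 3.81, 8.48 and 3.31 CPM, a log2 fold change of −5.37 ± 0.30 (SE, edgeR adjusted p = 2.92e-06). UNC5C, of the same receptor family, fell from 109 and 119 CPM to between 3.05 and 10.9 CPM. PLXNA4, a semaphorin co-receptor, rose from 2.04 and 2.07 CPM to 61.9, 80.9, 85.6, 80.8 and 95.2 CPM, a log2 fold change of 5.30 ± 0.20 (SE, edgeR adjusted p = 7.88e-09). Exons of PLXNA4 lie outside every opposite-strand gene.

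Netrin receptors thus moved apart within the family. The attractive netrin receptor DCC rose from 4.19 to 53.2 CPM on average and UNC5D from 0.908 to 5.31 CPM, while UNC5A had a log2 fold change of −0.58 and was not called. The chemokine receptor CXCR4 rose from 1.40 to 17.4 CPM, the slit receptor ROBO2 from 12.01 to 74.6 CPM and the ligand SLIT1 from 3.58 to 20.2 CPM. Among the further members that fell were NRP1 and SEMA3D, by 1.25 and 1.87 on the log2 scale. Of the 14 members outside every opposite-strand gene, 6 rose and 2 fell.

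Of 27 synaptic vesicle and scaffold genes, 7 rose and 4 fell, or 8 and 1 with the offset. SV2B, a synaptic vesicle glycoprotein, rose from 4.75 and 4.97 CPM to 176, 150, 179, 149 and 196 CPM, a log2 fold change of 5.13 ± 0.15 (SE, edgeR adjusted p = 1.4e-09). SYT4, of the synaptotagmin family, rose from 27.5 and 26.6 CPM to between 69.3 and 151 CPM. The further members STX1A, CPLX1 and CPLX2, parts of the vesicle fusion machinery, fell by 1.60, 1.505 and 1.47 on the log2 scale.

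Of 28 ion channel genes, 11 rose and 3 fell, or 14 and 2 with the offset, and the median log2 fold change was 0.86. Of these 28, only 7 lay outside every opposite-strand gene, and of those 2 rose and 2 fell. CACNA1A, the pore of the P/Q-type calcium channel, lies outside every opposite-strand gene and was at 0.175 and 0.2001 CPM in DMSO cells and at 5.81, 5.27, 33.6, 19.6 and 24.4 CPM in tumors. Its log2 fold change was 6.52 ± 1.39 (SE, edgeR adjusted p = 0.00688, but 0.0633 without DMSO replicate 1 and 0.0590 without DMSO replicate 2), and the tumors differed widely among themselves. KCND3, a potassium channel, rose from 0.583 and 0.867 CPM to between 8.18 and 13.3 CPM, and its exons overlap an opposite-strand gene. CACNA1E, another calcium channel pore, had no count in DMSO cells and 0.827 to 5.78 CPM in tumors, at least 60.8-fold higher against a floor of 3 counts over the group. Its exons also overlap an opposite-strand gene.

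**Figure D4:**
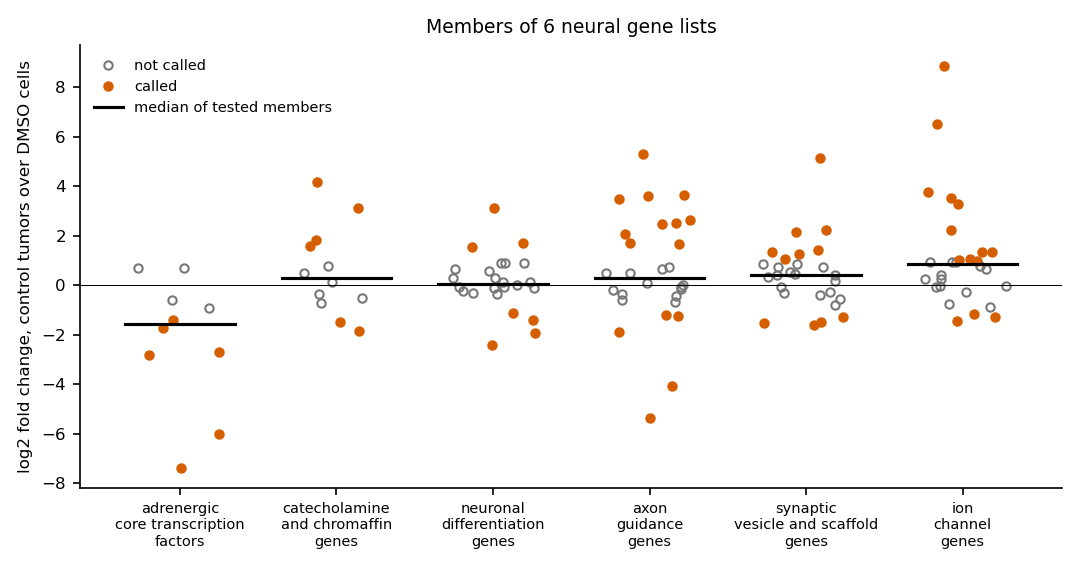
Log2 fold change, control tumors against DMSO cells, of each tested member of 6 neural gene lists, with called genes as filled orange points, others as open grey points and the list median as a black bar. The adrenergic transcription factors have a median of −1.58 and no called point above 0, whereas called points of the axon guidance, synaptic and ion channel lists lie on both sides of 0.

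Part of the genes of DNA replication and mitosis fell in tumors. Of 30 G1/S genes, 13 fell and none rose, with a median log2 fold change of −0.95, and with the offset 17 fell. Of 30 G2/M genes, 7 fell and none rose, with a median of −0.72, and with the offset 12 fell. All members of both lists had a log2 fold change below 0. MCM5, a subunit of the replicative helicase, fell from 183 and 189 CPM to 49.9, 53.4, 42.7, 46.7 and 46.0 CPM, a log2 fold change of −1.96 ± 0.08 (SE, edgeR adjusted p = 7.6e-09). TK1, thymidine kinase, fell from 112 and 119 CPM to between 28.2 and 35.9 CPM, and MCM2 from 354 and 358 CPM to between 102 and 121 CPM. In mitosis, the ubiquitin-conjugating enzyme UBE2C fell from 191 and 196 CPM to between 58.8 and 69.9 CPM and the kinase PLK1 from 155 CPM in both DMSO libraries to between 53.7 and 57.5 CPM. The proliferation marker MKI67 measured 523 and 509 CPM in DMSO cells and 378 to 399 CPM in tumors, a log2 fold change of −0.41 ± 0.06 (SE) that was not called, and TOP2A likewise had −0.33. The tumors thus lay below the cells for every one of these genes named, but by very different amounts.

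The regulators of entry into the cycle moved more. CCND1, cyclin D1, fell from 652 and 657 CPM to 163, 118, 193, 165 and 136 CPM, a log2 fold change of −2.08 ± 0.15 (SE, edgeR adjusted p = 3.88e-06), and CCND3 fell by 1.70 on the log2 scale. CDKN1A, the p21 inhibitor of cyclin-dependent kinases, fell from 101 and 98.8 CPM to 22.8, 14.7, 20.2, 23.4 and 20.2 CPM, a log2 fold change of −2.30 ± 0.13 (SE, edgeR adjusted p = 9.27e-08). CDKN2A rose by 1.52 on the log2 scale. CDKN2B, coding for p15, held 1 count over both DMSO libraries and 1.66 to 2.74 CPM in tumors, but its exons lie inside a gene on the opposite strand. CDKN1C, coding for p57, was at 2.94 and 3.74 CPM in cells and 4.30 to 7.06 CPM in tumors and was not called, although with the offset it was, at 1.35. Of 9 genes of this list tested, 2 rose and 4 fell, or 3 and 4 with the offset. Of 15 p53 target genes, 1 fell, CDKN1A, and 1 rose, TP53INP1, from 29.2 to 78.7 CPM on average, whereas 3 rose and 1 fell with the offset.

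Replication-dependent histone genes, whose messages end in a stem-loop instead of a poly(A) tail, made up 0.625% and 0.633% of all counts in DMSO cells and 0.199% to 0.288% in tumors. Of 43 tested, 34 fell and none rose, with a median log2 fold change of −1.86. With the GC and length offset 20 fell and 1 rose, and the median was −0.96. The size of this difference thus depended on the offset, in which the parts of GC content and length were not separated. H2AC14 fell the most, from 109 and 102 CPM to 5.68, 6.00, 6.28, 4.99 and 4.13 CPM (log2 fold change −4.28 ± 0.11, SE, edgeR adjusted p = 8.09e-10). Histone genes are near-identical copies of each other and the split of reads among them is uncertain.

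Ribosomal protein genes and mitochondrial-genome transcripts were called higher only. Of 42 cytosolic ribosomal protein genes, 11 rose and none fell, 7 with the offset, and the median log2 fold change was 0.63. RPL27 rose from 154 and 157 CPM to 620, 807, 682, 732 and 620 CPM, and RPS24 from 308 and 306 CPM to between 834 and 1014 CPM. These genes have many processed pseudogenes, which can share their reads. Of 18 nucleolar genes known as MYC targets, none rose and 2 fell, BOP1 and RRP9, of which BOP1 was not called with the offset. NCL, nucleolin, had a log2 fold change of 0.61 and ODC1, ornithine decarboxylase, of 0.18, neither called. Transcripts of the mitochondrial genome took 2.11% and 2.18% of counts in DMSO cells and 3.42% to 5.74% in tumors, and 8 of 13 rose and none fell. MT-ND5, a subunit of complex I, rose from 873 and 839 CPM to 4885, 3147, 3877, 5431 and 3884 CPM. The nuclear genes of the same respiratory chain did not follow: of 40, 1 rose and 4 fell, with a median log2 fold change of −0.20. With the offset again 1 rose and 4 fell, and the median was −0.27. COX8A, ATP5F1D and CYC1 were uncalled with the offset, so other members were then among the 4 that fell.

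The cholesterol pathway gave one of the most uniform differences. Cells that lack sterol release the transcription factor SREBP2, coded by SREBF2, from the endoplasmic reticulum, and it switches on the enzymes of cholesterol synthesis and SREBF2 itself. Of 23 genes tested, 15 fell and none rose, with a median log2 fold change of −1.25, and with the offset 14 fell and none rose. The list median lay between −1.15 and −1.32 in every tumor. DHCR7, which makes cholesterol in the last step of one branch, fell from 177 and 178 CPM to 24.0, 24.0, 24.3, 21.02 and 18.1 CPM, and the 5 tumors lay close together.

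Earlier steps and the regulators differed by less. FDFT1, squalene synthase, fell by 1.92 on the log2 scale, SQLE, squalene epoxidase, by 1.29, and HMGCS1, at the head of the route, by 1.05. INSIG1, which holds SREBP2 back when sterol is plentiful, fell from 85.7 and 85.3 CPM to between 34.2 and 39.4 CPM. SREBF2 itself fell from 284 and 291 CPM to 91.1, 104.6, 103, 84.9 and 76.4 CPM, a log2 fold change of −1.64. It was the only 1 of 18 list members with a sequence whose window held the sterol regulatory element, searched on both strands, against 0.104% of all windows (12 of 11566). Its window is shown with the match in capitals (RefSeq, GRCh38.p14).
SREBF2, chr22:41832855-41833104, plus strand: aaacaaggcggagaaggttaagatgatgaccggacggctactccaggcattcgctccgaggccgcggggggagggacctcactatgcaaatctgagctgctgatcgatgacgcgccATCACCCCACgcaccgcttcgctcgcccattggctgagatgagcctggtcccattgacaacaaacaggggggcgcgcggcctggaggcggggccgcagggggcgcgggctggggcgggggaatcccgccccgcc

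The sterol export list, which holds genes switched on by oxysterols through LXR, included calls in both directions. Of 7 tested, 2 rose and 1 fell. ABCG1, a sterol exporter, rose from 0.583 and 0.634 CPM to 7.07, 4.42, 5.48, 3.74 and 3.37 CPM, a log2 fold change of 2.97 ± 0.36 (SE, edgeR adjusted p = 1.83e-05). MYLIP, a ubiquitin ligase, rose by 1.10 on the log2 scale, or 0.79 and uncalled with the offset. SCD, a fatty acid desaturase that SREBP factors also drive, fell from 1222 and 1214 CPM to between 452 and 563 CPM.

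Stress lists gave few calls. Of 15 unfolded protein response genes, 2 fell and none rose, or 4 and none with the offset. SDF2L1 fell from 16.2 and 16.1 CPM to between 2.03 and 3.24 CPM, and PDIA4 fell by 1.08 on the log2 scale. Of 19 ATF4 stress and amino acid genes, 4 fell and none rose, or 2 and 1 with the offset, and the largest difference was in the amino acid transporter SLC7A5, from 456 and 462 CPM to between 138 and 189 CPM. Of 15 heat shock genes, 2 rose and 1 fell, or 3 and 1 with the offset. BAG3, a co-chaperone, fell from 6.73 and 7.30 CPM to between 1.02 and 2.09 CPM. None of the 3 metallothioneins tested was called, and in iron handling HMOX1, heme oxygenase, fell by 1.12 on the log2 scale, or by 0.84 and uncalled with the offset, while FTMT held 1 count over both DMSO libraries and 0.396 to 2.09 CPM in tumors.

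When oxygen is low, the HIF transcription factors escape degradation and bind the core letters ACGTG near genes for glycolysis, vessel growth and adaptation. Of 34 hypoxia and glycolysis genes tested, 11 rose and 1 fell, 12 and none with the offset, and the median log2 fold change was 0.68. The letters ACGTG stood in 16 of the 31 windows with a sequence, which is 51.6%, against 22.8% of all windows. The list was chosen as genes of hypoxia and glycolysis, so this share describes the list and not the tumors. Of the 16, only ANGPTL4, ANKRD37, DDIT4, INSIG2 and P4HA1 rose, and the others, such as LDHA, were not called. The further members that rose, VEGFA, ADM, PDK1, STC2, NDRG1 and KDM3A, were not among the 16. Windows of P4HA1, a collagen prolyl hydroxylase, and ANKRD37, an ankyrin-repeat protein, are shown as examples of called members with a match, with the letters in capitals on either strand (CACGT reads ACGTG on the other strand; RefSeq, GRCh38.p14). The match in P4HA1 lies 86 bases before the start, and those in ANKRD37 lie 162, 161 and 143 bases before it.
P4HA1, chr10:73096867-73097116, minus strand: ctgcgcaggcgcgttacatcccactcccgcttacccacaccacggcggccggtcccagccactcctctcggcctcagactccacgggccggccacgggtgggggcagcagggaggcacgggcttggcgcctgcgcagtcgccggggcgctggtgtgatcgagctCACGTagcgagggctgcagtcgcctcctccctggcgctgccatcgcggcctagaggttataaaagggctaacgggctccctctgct
ANKRD37, chr4:185396591-185396840, plus strand: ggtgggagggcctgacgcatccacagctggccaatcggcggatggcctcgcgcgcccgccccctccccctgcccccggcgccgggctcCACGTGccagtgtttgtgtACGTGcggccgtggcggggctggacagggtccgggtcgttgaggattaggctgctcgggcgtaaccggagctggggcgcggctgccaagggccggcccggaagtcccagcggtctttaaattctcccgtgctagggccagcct

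The hypoxia genes that rose were not the glycolytic enzymes. VEGFA, the vessel growth factor, measured 22.0 and 21.6 CPM in DMSO cells and 53.9, 202, 86.3, 326 and 76.2 CPM in tumors, a log2 fold change of 2.77 ± 0.94 (SE, edgeR adjusted p = 0.0439). Without tumor 4 it was 2.27, and the edgeR adjusted p was 0.0796 without tumor 2, 0.0558 without tumor 3 and 0.179 or 0.181 without either DMSO library. ADM, the vasodilator adrenomedullin, went from 0.3497 and 0.300 CPM to 0.990, 5.04, 2.46, 16.3 and 3.24 CPM, a log2 fold change of 4.08 ± 1.35 (SE, edgeR adjusted p = 0.0334), which was 3.16 without tumor 4 and passed the threshold neither without tumor 2 (edgeR adjusted p = 0.0587) nor without either DMSO library (0.163 and 0.170). For both genes every tumor lay above the cells, and the spread among tumors set the uncertainty. PDK1, the kinase that turns pyruvate away from mitochondria, rose from 19.4 and 17.6 CPM to 78.7, 211, 104.7, 224 and 121 CPM. STC2, a secreted glycoprotein, rose from 5.04 and 5.74 CPM to 76.1, 97.0, 70.7, 98.8 and 53.1 CPM, a log2 fold change of 3.88 ± 0.30 (SE, edgeR adjusted p = 1.02e-05).

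Further members that rose were NDRG1, from 6.24 to 49.3 CPM on average, DDIT4, an mTORC1 inhibitor, from 28.3 to 108 CPM, the histone demethylase KDM3A, from 35.5 to 110 CPM, P4HA1, from 11.2 to 40.9 CPM, INSIG2 and ANKRD37. For ANKRD37 the groups overlapped, and it was not called with the offset. Among the glycolytic genes, PKM, pyruvate kinase, fell from 1612 to 728 CPM on average but was not called with the offset. The lactate dehydrogenase LDHA measured 1029 and 1001 CPM in DMSO cells and 711 to 1189 CPM in tumors, and the glucose transporter SLC2A1 64.8 and 63.8 CPM and 30.2 to 66.3 CPM, and for both the groups overlapped. CA9, a carbonic anhydrase often used as a hypoxia marker, held 2 counts over both DMSO libraries and 0.0636 to 0.374 CPM in tumors and was too low to test.

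The tumors themselves varied along this list. The median log2 difference of its members from the DMSO mean was 0.22, 0.91, 0.20, 1.02 and 0.42 in tumors 1 to 5. Tumor 4 had the highest value in 24 of the 34 genes and in 10 of the 11 that rose, while tumor 1 had the lowest in 25 of the 34. Over all genes tested tumor 4 was the highest in 23.3% and tumor 1 the lowest in 23.8%. Tumor 4 was also the tumor with the highest ID1, ID3 and SMAD6, the highest COL1A1 and the highest share of mitochondrial-genome counts. Whether these values are linked was not tested.

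**Figure D5:**
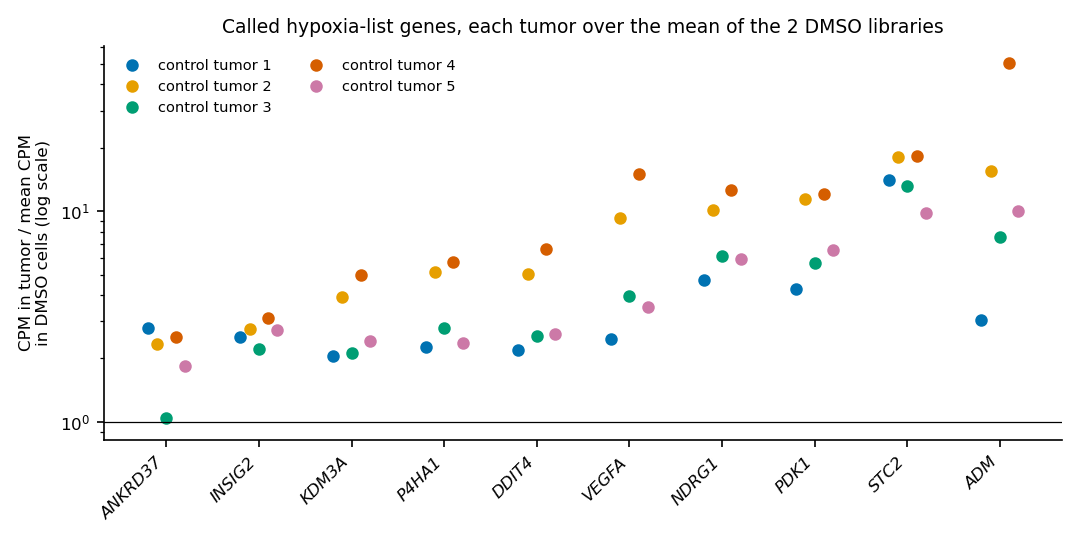
Level of hypoxia genes that rose, as the ratio of CPM in each control tumor to mean CPM in DMSO cells, on a log scale, with 1 coloured point for each tumor and a line at a ratio of 1. VEGFA ranges from 53.9 to 326 CPM across tumors, and tumor 4 is the highest for every gene shown except ANKRD37. ANGPTL4 is left out because it held 1 count in DMSO cells.

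Retinoic acid receptor targets were compared because neither group had received retinoic acid. Of 8 tested, 3 rose and 2 fell. CRABP1, a cytoplasmic retinoic acid binding protein, rose from 1.84 and 2.30 CPM to 19.2, 33.8, 25.1, 27.4 and 20.03 CPM, a log2 fold change of 3.61 ± 0.27 (SE, edgeR adjusted p = 9.87e-07). RARB, retinoic acid receptor beta and itself a target, rose from 1.05 and 0.800 CPM to 4.82, 4.53, 4.68, 3.49 and 4.20 CPM, and RET, a receptor kinase that retinoic acid induces in neuroblastoma lines, from 0.887 to 2.52 CPM on average. STRA6, the retinol transporter, fell from 28.4 and 29.6 CPM to between 3.08 and 6.73 CPM and TGM2, a transglutaminase, from 9.09 and 8.64 CPM to between 0.572 and 1.32 CPM. Exons of CRABP1, STRA6 and TGM2 overlap opposite-strand genes. CYP26A1, the enzyme that clears retinoic acid, was at 0 in DMSO cells and at 0.387 CPM on average in tumors and was not tested.

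Of 15 pro-apoptotic genes, 2 rose and 3 fell, or 3 and 4 with the offset. HRK, a BH3-only protein of neurons, rose from 2.54 and 2.40 CPM to 15.4, 13.99, 18.2, 18.6 and 15.8 CPM, a log2 fold change of 2.73 ± 0.17 (SE, edgeR adjusted p = 9.6e-08). CASP8, the initiator caspase that is often silenced in MYCN-amplified neuroblastoma, held 3 counts over both DMSO libraries and 0.763 to 1.87 CPM in tumors. The pore-forming proteins BAK1 and BAX and the death receptor FAS fell by 1.47, 1.25 and 1.12 on the log2 scale. Of 8 anti-apoptotic genes, 2 rose and none fell. BCL2 rose from 9.18 and 9.10 CPM to between 18.8 and 26 CPM, and BIRC3, a ubiquitin ligase of the NF-kB route, from 0.146 and 0.1 CPM to between 0.792 and 3.45 CPM.

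The insulin-like growth factor list held the largest log2 fold change of any named gene with more than 3 counts in DMSO cells. IGFBP5, a secreted binding protein for these factors, measured 6.21 and 6.94 CPM in DMSO cells and 775, 876, 852, 1434 and 1308 CPM in tumors, a log2 fold change of 7.32 ± 0.42 (SE, edgeR adjusted p = 4.85e-06), and its exons overlap a gene on the opposite strand. Of 13 genes tested, 4 rose and 1 fell, or 5 and 1 with the offset. IGF2 rose from 0.787 and 0.734 CPM to 4.56, 5.66, 5.35, 10.1 and 5.02 CPM, and the receptor IGF1R from 39.6 to 88.4 CPM on average. IGF1 had no count in DMSO cells and at most 0.890 CPM in tumors, and its exons lie inside an opposite-strand gene.

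Notch and Wnt lists gave calls in both directions. Of 16 Notch genes, 4 rose and 2 fell, or 7 and 2 with the offset. MFNG, a glycosyltransferase that modifies Notch receptors, rose from 3.61 and 4.44 CPM to 47.1, 35.6, 40.4, 37.1 and 48.3 CPM, whereas its relative LFNG fell from 11.7 to 2.18 CPM on average and the receptor NOTCH1 from 8.28 and 9.54 CPM to between 0.660 and 2.93 CPM. The Notch target HEY2 went from 0.0583 and 0.2001 CPM to between 0.132 and 1.23 CPM, so the groups overlapped, and its call was lost without DMSO replicate 1 (edgeR adjusted p = 0.0180, against 0.161). Of 21 Wnt genes, 2 rose and 4 fell, or 4 and 4 with the offset. The antagonist DKK1 fell from 4.40 and 4.70 CPM to at most 0.312 CPM, and NKD1, SFRP1 and WNT5A fell by 2.02, 1.60 and 1.41 on the log2 scale. WNT11 rose from 0.146 and 0.0667 CPM to between 1.19 and 2.24 CPM, and RNF43, with no count in DMSO cells, was at 0.132 to 1.02 CPM in tumors, at least 11.1-fold higher. Exons of both overlap opposite-strand genes. Widely used readouts of the pathway, AXIN2, SP5 and LGR5, had log2 fold changes between −0.43 and −0.19 and were not called.

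Mesenchymal-state genes, which mark the other cell state of neuroblastoma, split evenly, with 3 that rose and 3 that fell of 15. IFI16, a DNA sensor, fell from 14.4 and 14.2 CPM to at most 0.187 CPM, a log2 fold change of −7.48 ± 0.33 (SE, edgeR adjusted p = 1.2e-08). The AP-1 members FOSL1 and FOSL2 rose, FOSL2 from 9.21 and 9.47 CPM to between 22.8 and 30.6 CPM. VIM, vimentin, was at 264 and 275 CPM in cells and at 180 to 244 CPM in tumors and was not called. The state's other markers CD44, SNAI2 and PRRX1 were not called either.

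Immediate early genes are switched on within minutes by growth factors, stress and tissue handling. Of 19 tested, 7 rose and 2 fell, 8 and none with the offset. FOS measured 0.583 and 0.534 CPM in DMSO cells and 1.12, 2.83, 1.97, 6.80 and 0.827 CPM in tumors (log2 fold change 2.27, edgeR adjusted p = 0.0384). It was 1.60 without tumor 4 and was lost without tumor 2 (edgeR adjusted p = 0.0643) or either DMSO library (0.162 and 0.173). EGR2 and NR4A3 rose, though EGR2, at 0.191 to 0.873 CPM in tumors, was lost without either DMSO library (edgeR adjusted p = 0.105 and 0.0842). EGR1 was at 4.66 and 5.27 CPM in cells and at 8.04 to 11.4 CPM in tumors, and its log2 fold change of 0.98 crossed the 2-fold threshold with the offset, at 1.15, and without DMSO replicate 2, tumor 2 or tumor 3, at 1.02 to 1.06.

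Of 13 interferon response genes tested, 4 rose and 2 fell. The 4 that rose, IFIT1, IFIT2, IFIT3 and IRF7, had no count in either DMSO library and passed the count filter only through the tumors. IFIT1, an RNA-binding antiviral protein, was at 5.61, 6.74, 5.60, 6.61 and 8.33 CPM in tumors, at least 141-fold higher, and IFIT2 at 1.97 to 3.99 CPM, at least 64.2-fold higher. All 3 IFIT genes lie inside the span of a gene on the opposite strand. IRF7, a transcription factor of the antiviral response, was at 2.89 to 5.74 CPM, at least 94.9-fold higher, and lies outside such genes. The further members IFI44L and IFI44, expressed in both groups, fell by 1.68 and 1.03 on the log2 scale, and MX1 and MX2 had no count in any library. Of the 5 members outside every opposite-strand gene, 1 rose and 2 fell, so the list shared no direction.

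Of 8 MHC class I and antigen presentation genes, 2 fell and none rose, or 1 and 1 with the offset. TAPBP, a chaperone of peptide loading, fell by 1.20 on the log2 scale, although not called with the offset. B2M, the invariant chain, was at 44.6 and 45.8 CPM in cells and 29.4 to 48.1 CPM in tumors, and the groups overlapped. HLA-B, HLA-C, TAP1, PSMB8 and PSMB9 were below 0.1 CPM in both groups, too low to test.

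Of 28 extracellular matrix genes, 8 fell and 4 rose, or 7 and 5 with the offset, with a median log2 fold change of −0.68. COL5A1, a fibrillar collagen, fell from 47.2 and 47.8 CPM to 6.80, 6.51, 4.98, 11.4 and 6.93 CPM, and FBN2, fibrillin, from 120 CPM in both DMSO libraries to between 10.3 and 28.3 CPM. COL4A1 and COL4A2, the basement membrane collagens, fell by 1.01 and 1.34 on the log2 scale. COL1A2 rose from 2.97 and 3.07 CPM to 27.5, 13.3, 26.5, 22.4 and 20.3 CPM, a log2 fold change of 2.86 ± 0.29 (SE). Its partner in type I collagen, COL1A1, measured 19.2 and 19.01 CPM in cells and 26.7, 13.3, 21.8, 90.7 and 15.5 CPM in tumors, so the groups overlapped, and its log2 fold change was 0.81 (edgeR adjusted p = 0.446), or 0.02 without tumor 4. The fibroblast marker PDGFRB fell from 27.4 to 1.04 CPM on average, and LUM, POSTN and DPT were under 1 CPM on average in both groups.

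Most markers of other cell types that rose did so at low levels, with the fibroblast marker COL1A2, given above, as an exception. Of the fibroblast markers 9 were tested, of which 2 rose and 4 fell, or 2 and 3 with the offset, and without tumor 4 it was 1 and 5 of 8. Of the endothelium markers 3 were tested, of which 2 rose, or 3 with the offset. Only 1 of the 12 had at least 10 counts over the DMSO libraries, against 10 over the tumors. Most of the endothelium markers tested thus passed the count filter through the tumors. The only red cell marker tested, SLC4A1, rose, but not without DMSO replicate 1 (edgeR adjusted p = 0.0105, against 0.113). Of 6 skin and muscle markers tested, none rose and 1 fell, or 2 with the offset, whereas without tumor 1 there were 3 of 5 that rose and 1 that fell. MYH4 was among those called without tumor 1 (edgeR adjusted p = 0.00949, against 0.210 with it). Of the 12 neuroblastoma markers, 4 rose and 4 fell. PECAM1, SOX10 and MYH4 had no count in DMSO cells, and SOX10, the defining factor of Schwann cells, averaged 1.93 CPM in tumors. Of 8 Schwann cell markers tested, 7 rose and 1 fell. Of the 10 on the list, 3 had at least 10 counts over the DMSO libraries and 9 over the tumors. Most of those tested thus passed the count filter through the tumors and could hardly have fallen. Exons of 5 of the 8 overlap opposite-strand exons, and of the 3 outside every opposite-strand gene 2 rose and 1 fell. ERBB3, a neuregulin receptor, held 1 count in DMSO cells and 2.09 to 2.62 CPM in tumors, and NGFR, the neurotrophin receptor, rose from 1.17 and 0.967 CPM to between 2.40 and 5.67 CPM. All 3 leukocyte markers tested rose, CD74 with 2 counts in DMSO cells and 3.398 to 5.74 CPM in tumors and CD68 with 0.146 and 0.367 CPM and 0.998 to 3.70 CPM, and in the endothelium list ENG rose from 0.0874 and 0.133 CPM to between 1.31 and 2.46 CPM. The part of host cells, of the opposite-strand counts and of the tumor cells themselves in these low levels was not tested.

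The genes with the largest fold changes had no count in DMSO cells. The rule for the 12 highest took called genes with at least 5 CPM in the higher group, every tumor on the same side of the cells and no exonic overlap with an opposite-strand gene. C2orf16 was at 33.0, 33.0, 39.1, 44.9 and 46.3 CPM in tumors, at least 841-fold higher, and SLC2A2, the glucose transporter of liver and islets, at 40.7, 27.9, 36.0, 36.9 and 44.1 CPM, at least 795-fold higher. VWC2L, SPDYE6, KLB, OMD, OMG, ECM2, FAM20A, SPDYE5, ERVFRD-1 and FHL5 followed, with bounds from at least 494-fold down to at least 204-fold. Most of these genes are known from other tissues. Although their exons overlap no opposite-strand exon, 7 of the 12 lie inside the span of an opposite-strand gene, OMD and ECM2 in CENPP, OMG in NF1, ERVFRD-1 in SMIM13, FAM20A in PRKAR1A, and SLC2A2 and VWC2L in noncoding genes. SPDYE5 and SPDYE6 belong to a family of near-identical copies, so their counts are uncertain.

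The same held more widely. Of 343 genes tested that had no DMSO count, 233, or 67.9%, lay inside an opposite-strand gene, against 50.8% of all genes tested. Such genes passed the count filter only through the tumors and could not have fallen. Of 580 genes that rose more than 32-fold, 401 lay inside such a gene and 326 had no DMSO count, whereas only 25 genes fell more than 32-fold. The part of strand in these rises was not tested.

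For that reason, the largest rises were also read among genes with at least 5 CPM in DMSO cells and outside every opposite-strand gene, a selection made after the values had been seen, with 254 genes that rose. EYA2, a transcriptional coactivator and phosphatase, led them, from 9.06 and 7.47 CPM to 178, 191, 223, 229 and 193 CPM, a log2 fold change of 4.61 ± 0.14 (SE, edgeR adjusted p = 1.74e-09). C1orf115, STC2, the adhesion molecule SDK2 and CAMK2N1, an inhibitor of CaM kinase, followed, with log2 fold changes of 4.13, 3.88, 3.46 and 3.43. NCAN, neurocan, rose from 43.3 to 397 CPM on average. CNTN2, RGS8, KLHDC8A, NPR3, PPP1R17 and DACT1 completed the 12.

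The 12 lowest were expressed in culture and nearly gone in tumors. Among them were CKM, EXOC3L2, SMAD6, ATOH8, PRRX2, ID3, UNC5B, PKIB, DOCK5, HTRA3 and FABP7, and 3 of the 12, ID3, SMAD6 and ATOH8, also stood in the BMP lists. DOCK5, an activator of Rac, fell from 76.1 and 77.4 CPM to 1.85, 1.81, 2.46, 2.81 and 2.35 CPM, a log2 fold change of −5.09 ± 0.12 (SE, edgeR adjusted p = 3.89e-10). PKIB, an inhibitor of protein kinase A, fell from 198 and 196 CPM to 4.29, 4.02, 5.17, 6.36 and 6.99 CPM. CKM, the muscle creatine kinase, measured 33.5 and 33.8 CPM in cells, 1.32 CPM in tumor 1 and at most 0.185 CPM in the other tumors. Tumor 1, the highest for MYH4, was thus also the highest tumor for CKM, though far below the cells. Only 2 of the 12, EXOC3L2 and PKIB, lie inside an opposite-strand gene.

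Variation among the 5 tumors was small for most genes and large for a few. Genes with at least 5 CPM in tumors had a median coefficient of variation of 9.21% across tumors. PLK1, MKI67 and NCL varied by 2.53%, 2.10% and 4.80%. At the other end, SMAD6 varied by 184%, ID1 by 153%, ADM by 110%, COL1A1 by 96.3%, ID3 by 90.9% and VEGFA by 76.9%. The lists followed the same division: the cholesterol list medians of the tumors had an SD of 0.08 on the log2 scale and the G1/S list 0.10, against 0.39 for hypoxia and 0.83 for the ID genes.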

How the data were processed

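RNA sequencing of CHP-134 cells and of CHP-134 tumors was read from 2 deposited tables of expected counts, which the authors estimated per gene with RSEM 1.3.3 after trimming with Trim Galore 0.4.4 and alignment with STAR 2.7.10a to hg38 (versions per the submitters' processing notes). The annotation release, the strand setting of the counting and any removal of mouse reads are not given in the sources used here. Cell and tumor libraries were both depleted of ribosomal RNA, with different kits.

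The tables were joined on gene identifier, and expected counts were rounded to whole numbers. Only protein-coding genes were tested, with depth per library as given in the report. Genes passed filterByExpr of edgeR 4.0.16 (minimum count 10, R 4.3.3), libraries were scaled by TMM, and the 5 control tumors were tested against the 2 DMSO libraries by the quasi-likelihood test with Benjamini-Hochberg adjustment over all 14481 genes, without a block. DESeq2 1.42.0, which the study used, was an alternative. Fold bounds for genes without a count use a floor of 3 counts over the group and cover counting error only. The offset for GC content and length was a smooth trend fitted with mgcv 1.9.3. Each gene's exons were compared with genes on the opposite strand. Scripts were tested on simulated data.

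Named genes were the ID genes, a fixed set, the 12 highest and 12 lowest called genes with at least 5 CPM in the higher group, all tumors on one side of the cells and no exonic opposite-strand overlap, the 3 called members with the largest change of each of 37 pathway lists (or the member with the highest level where none was called), and the 2 most abundant members of each of 7 marker lists. The comparison and all lists were chosen with earlier results of these data known. Promoter windows came from RefSeq. Other scalings, count filters, gene sets, a test against the 2-fold threshold, all 17 libraries and leaving out each library were tried. Values of some genes that the rule named are not reported here.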

Additional observations from a re-analysis of the deposited data

Results flagged for a closer look

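In 15 of the 160 named genes, which is 9.38%, 1 tumor stood apart from the other 4 by a gap larger than Dixon's 95% critical value of 0.71, and chance alone would single out about 1 in 20 groups. Tumor 4 was the high one in 10 of them. ID1 was at 18.2 CPM in tumor 4 against 1.93 CPM in the next tumor, ID3 at 7.86 against 2.16 CPM, SMAD6 at 5.86 against 0.396 CPM and MSX2 at 0.187 CPM against 0. ADM was at 16.3 CPM in tumor 4 against 5.04 CPM, COL1A1 at 90.7 against 26.7 CPM and UNC5B at 8.48 against 3.90 CPM. DBH was at 6.55 CPM in tumor 4 against 2.77 CPM, IGF2 at 10.1 against 5.66 CPM and HBA1, an alpha globin with a near-identical copy, at 1.06 against 0.264 CPM. Tumor 1 was the high one for MYH4 at 58.4 CPM against 1.29 CPM, for CKM at 1.32 against 0.185 CPM and for CD68 at 3.70 against 1.66 CPM. Tumor 2 was high for OMG at 12.5 against 11.1 CPM and low for MYLIP at 12.7 against 17.2 CPM.

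Signals outside the protein-coding genes also differed between the tables. The noncoding genes opposite a protein-coding gene had a median level of at least 0.578% of their partner in every tumor, against at most 0.0257% in DMSO cells. Small nucleolar RNAs took at least 0.988% of counts in every tumor and at most 0.0954% in DMSO cells.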

How the results depend on the processing

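The 4152 calls became 1966 when only genes outside every opposite-strand gene were tested and 1750 with the GC and length offset in addition, a combination chosen after seeing the data. In both cases fewer genes were tested. The genes that rose numbered 1646 with a minimum count of 50, 1197 outside opposite-strand genes and 1291 outside them with the offset, against 2620. The genes that fell numbered 903 with the offset, 937 in a test against the 2-fold threshold, 769 outside opposite-strand genes and 459 outside them with the offset, against 1532. The median log2 fold change of the CDK inhibitors and D cyclins, −0.75, turned to 0.54 outside opposite-strand genes and to 1.05 with the offset as well, where other members make up the list. Leaving out 1 library at a time gave 3974 to 4207 calls, 2498 to 2593 genes that rose and 1475 to 1644 that fell. With 1 DMSO library left out, the remaining one is assumed to vary like the tumors.

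No called named gene changed sign under any alternative in which it was tested; the uncalled CLDN5, LDHA and ODC1 did under at least 1. DESeq2 gave no adjusted p for ID1, SMAD6 and MYH4 and kept the side of the threshold of the other 155 named genes tested. Without DMSO replicate 1, 8 named genes lost their call, and without DMSO replicate 2, 7 did. Samples with the same number did not deviate together (correlations of −0.0808 for number 1 and −0.0227 for number 2), so they share only a number. With the replicate number as a block, 3979 genes were called, 2483 higher and 1496 lower, and 7 named genes lost their call. Upper-quartile scaling shifted the median of all genes by 0.17 on the log2 scale. Tumor libraries were the shallower ones, which limits genes of a few counts most.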
